A study of Homo sapiens with 38 samples.

Results

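The effect of depleting VPS4A together with VPS4B was measured by comparing siVPS4A+B#1 cells with siVPS4B#1 cells. Both received the same VPS4B duplex, and in the double depletion both genes were silenced simultaneously. The comparison was chosen by its siRNAs: all libraries named for the first double combination (duplexes siVPS4A#2 and siVPS4B#1, 30 nM each) were set against all libraries named for siVPS4B#1 (30 nM, filled up with 30 nM of the non-targeting duplex siCTRL#1). It held 8 of the 38 libraries of the series, 4 in each group, numbered 1 to 4 in both groups, so that there were 4 same-numbered pairs. All libraries came from HCT116, an established human colorectal carcinoma line, grown in medium with serum, transfected with Lipofectamine RNAiMAX and profiled as total RNA 72 h later with the Ion AmpliSeq transcriptome panel, which reads 1 amplicon per gene. Further groups served as references: siCTRL#1 (60 nM, 5 libraries), siVPS4A#2 alone (30 nM, with 30 nM siCTRL#1, 4 libraries), and the second double combination siVPS4A+B#2 against its own siVPS4B#2 (4 libraries each), which used other duplexes for both genes. The labels give a batch letter that runs with the replicate number and do not say how the cultures of a batch were separated, so p-values measure the spread between these libraries. The model is 1 cell line with transient knockdown, and every level below is a share of a library's reads in a bulk culture, where fewer cells of a kind and less RNA per cell cannot be told apart.

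VPS4A and VPS4B are paralogous AAA ATPases that pull apart ESCRT-III filaments after these have cut a membrane neck, in multivesicular body sorting, cytokinesis, nuclear envelope sealing and membrane repair. Because the ESCRT machinery sends ubiquitinated receptors to lysosomes, receptors such as those of the TNF family can stay on endosomes and signal when it fails. NF-kB, the transcription factor family downstream of many of these receptors, exists in a canonical branch, held by the IkB inhibitors, and a non-canonical branch, driven by the kinase NIK, and both induce chemokines, survival genes and their own inhibitors.

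Read totals of the 8 libraries ran from 6309022 to 9919502, and low deposited values were whole multiples of the share of 1 read. The one library of the series that stood apart in depth, siVPS4A#1 replicate 2 with 669257 reads, was in neither group but entered the common estimate of spread. Values are given as reads per 1000000 (RPM) after TMM scaling, and are not compared between genes because each gene has its own amplicon. Fold changes are on the scale of log2(RPM + 1), which understates changes of genes with few reads. A gene was called higher or lower at a fold of at least 1.5 and a Benjamini-Hochberg adjusted p below 0.05 in a limma model of all 38 libraries blocked on replicate, and "rose" and "fell" are used for such calls only. Groups without overlap are described below mostly for called genes with large changes, where separation is likely. The share of all genes so separated is not given, and separation is no further support for a call.

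The targeted transcripts followed the labels. VPS4A (chr16:69345253-69360842, plus strand, GRCh37 annotation) stood at 13, 33.9, 22.6 and 10.7 RPM in siVPS4A+B#1 replicates 1 to 4, and at 187, 188, 214 and 229 in siVPS4B#1. The groups were far apart, with 20.1 ± 10.6 (SD, n = 4) against 204 ± 20.9, and 9.81% of the mean level was left (exact 2-sided permutation test p = 0.0286, the smallest that 4 against 4 allow, 0.0429 after Benjamini-Hochberg adjustment over 3 tests). Within same-numbered pairs 6.99%, 18.1%, 10.5% and 4.68% was left, so replicate 2 kept the most VPS4A. The same duplex alone left less, 7.83 ± 2.17 against 189 ± 13.8 in siCTRL#1, and the siVPS4A+B#1 libraries were all above the siVPS4A#2 libraries (exact permutation p = 0.0286, and 0.0571 with library totals). VPS4B (chr18:61056423-61089716, minus strand, GRCh37) was near the limit of detection on both sides, with 2, 3, 3 and 7 reads in siVPS4A+B#1 and 5, 7, 1 and 1 reads in siVPS4B#1, against 20.6 ± 3.50 RPM in siCTRL#1, and no difference was detectable at this depth (exact permutation p = 0.657).

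With the VPS4A duplex in place of siCTRL#1 beside the VPS4B duplex, 527 genes rose (4.17% of the 12627 tested). In the other direction 403 fell (3.19%), VPS4A among them. The shares of all genes, 4.17% higher and 3.19% lower, are the background for every count of list members in this comparison below. The median gene moved by 0.01 on the log2 scale. Of the raised genes, 341 changed by less than 1 on the log2 scale, 160 by 1 to 2 and 26 by 2 or more, while of the lowered genes 310 changed by less than 1, 89 by 1 to 2 and only 4 by more. The calls leaned on individual replicates: without replicate 4 in any group there were 212 higher and 133 lower, without replicate 3 there were 268 and 194, and without replicate 1 there were 301 and 173, whereas leaving out replicate 2 gave 742 and 704. Without the shallow siVPS4A#1 library the counts were 613 and 635. The split between the directions depended on scaling. With plain library totals the median gene moved by -0.12 and 331 genes were called higher against 747 lower, so that 30.7% of the calls were higher instead of 56.7%, and with upper-quartile scaling 421 were higher against 524 lower (44.6% higher).

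The same VPS4A duplex did little when VPS4B was present. siVPS4A#2 minus siCTRL#1, a comparison that shares no library with the one above, gave 5 genes higher (0.0396%) and 4 lower (0.0317%). The 4 lower genes were VPS4A, THBS1, USP47 and PROS1, and the 5 higher ones were NAF1, MTFP1, PPP1R16A, TDRKH and ZRANB3 (the 8 besides VPS4A are named because the counts are small, after their values were seen). Of the 527 genes raised in VPS4B-depleted cells, 0 were called with siVPS4A#2 alone, 207 had a positive difference and the median was -0.05, beside a median of 0.88 in VPS4B-depleted cells. Of the 402 lowered genes other than VPS4A, 1 was called with siVPS4A#2 alone, and the median there was -0.08 beside -0.81. The shared gene was USP47, a ubiquitin-specific protease, at 18.6 ± 6.47 RPM in siVPS4A+B#1 and 36.7 ± 6.27 in siVPS4B#1 (log2 fold change -0.99, limma adjusted p = 0.0014), and with a log2 fold change of -2.24 under the duplex alone. The difference between the effects of the duplex in the presence and absence of VPS4B was itself tested as an interaction in the same limma fit, and 258 genes (2.04%) had the more positive and 71 (0.562%) the more negative effect in VPS4B-depleted cells. Without replicate 3 this number went from 329 to 12, without replicate 4 to 29 and without replicate 1 to 56, and it was 694 without replicate 2 and 783 without the shallow library.

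With other duplexes for both genes the comparison of double with single depletion was larger. siVPS4A+B#2 minus siVPS4B#2, which also shares no library, gave 1502 genes higher (11.9%) and 1601 lower (12.7%). Of the 527 genes raised by the first combination, 367 were also called higher by the second, which is 69.6% of the first list and 24.4% of the second, and 504 had a positive difference, with medians of 0.88 and 0.88. Of the 402 lowered genes, 214 were also called lower (53.2% of the first list and 13.4% of the second) and 353 had a negative difference, with medians of -0.81 in the first and -0.66 in the second combination. A direct test of the difference between the combinations called 554 genes with the more positive (4.39%) and 373 with the more negative (2.95%) effect in the first. Over the 1502 genes raised by the second combination, the median same-numbered difference in the first was 0.39, 0.26, 0.37 and 0.45 in replicates 1 to 4, and over the 1601 lowered genes it was -0.24, -0.16, -0.27 and -0.30. Replicate 2, with the most VPS4A left, had the smallest medians in both directions, and replicate 4, with the least, the largest; 4 pairs are too few for a correlation.

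**Figure D1:**
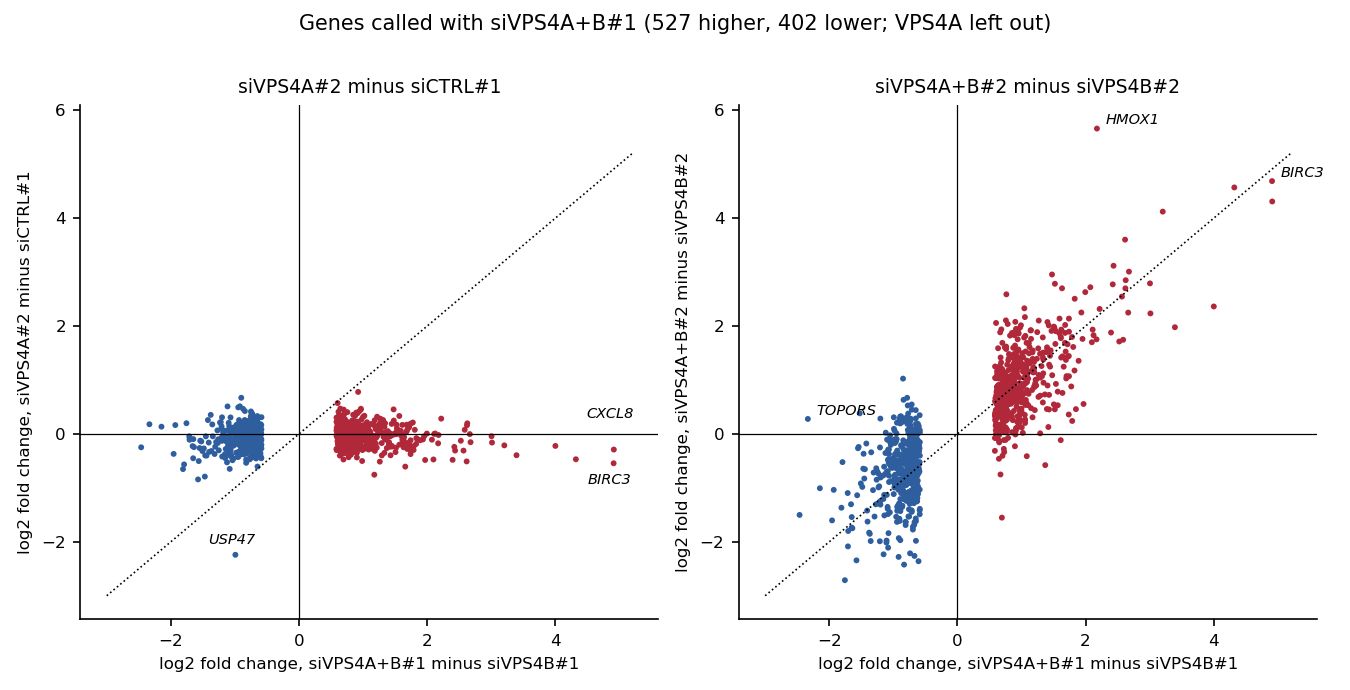
Log2 fold change of the called genes (527 higher in red, 402 lower in blue, VPS4A left out) in siVPS4A+B#1 minus siVPS4B#1 on the horizontal axes, against siVPS4A#2 minus siCTRL#1 (left) and siVPS4A+B#2 minus siVPS4B#2 (right) on the vertical axes; the dotted line marks equal change. On the left the points lie along 0 apart from USP47, and on the right HMOX1 (5.66 against 2.18) and TOPORS (0.28 against -2.33) lie away from the line.

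Chemokines and cytokines held some of the largest rises. CXCL8 (chr4:74606236-74609433, plus strand, GRCh37), the neutrophil-attracting chemokine interleukin-8, was at 253, 126, 259.7 and 345 RPM in siVPS4A+B#1 and at 7.42, 7.06, 5.21 and 7.39 in siVPS4B#1 (log2 fold change 4.91 ± 0.69 SE, limma adjusted p = 9.75e-06). The lowest double-depleted library, replicate 2, was still far above the highest single-depleted one. CXCL2, a related chemokine, was at 8.49, 8.51, 5.17 and 11.6 against 0.606, 1.64, 1.20 and 1.23 (2.10 ± 0.40, limma adjusted p = 0.000483), again without overlap. Of the 5 chemokines measured, 2 rose (40% beside 4.17% of all genes) and none fell, and the median of the list was 0.70.

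IL32, a proinflammatory cytokine (chr16:3115298-3132193, plus strand, GRCh37), was almost silent in siVPS4B#1, with 3 to 7 reads per library. Its levels were 31.0, 14, 26.8 and 37.8 RPM in siVPS4A+B#1 against 0.606, 0.677, 0.401 and 1.08 (log2 fold change 4.00 ± 0.52 SE, limma adjusted p = 2.73e-06). CSF1, the macrophage growth factor, was at 24.5, 30.2, 39.0 and 48.2 against 8.48, 10.7, 9.08 and 13.1 (1.66 ± 0.31, limma adjusted p = 0.000425). IL18, a cytokine made as an inactive precursor, was already abundant and went from 175, 186, 218 and 219 to 304, 249, 419 and 479 (0.82 ± 0.23, limma adjusted p = 0.016). All 3 genes were separated between the groups. TNF passed the test at levels too low to rest on (0 to 20 reads in siVPS4A+B#1, of which replicate 3 had 0, and 0 to 1 read in siVPS4B#1), as did IL1A (4 to 13 against 0 to 4 reads). Altogether 6 of 15 cytokines and growth factors rose (40% beside 4.17% of all genes), TNF and IL1A included, and none fell, with a median of 0.60. Only 2 of the 15 rose without replicate 1 or without replicate 4, and 3 without replicate 3.

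Members of the TNF receptor family moved in both directions. TNFRSF9, the costimulatory receptor 4-1BB (chr1:7975931-8003225, minus strand, GRCh37), was at 31.9, 20.1, 57.6 and 71.2 RPM in siVPS4A+B#1 and at 1.06, 0.773, 1.60 and 0.924 in siVPS4B#1 (log2 fold change 4.32 ± 0.60 SE, limma adjusted p = 8.58e-06). The death receptors TNFRSF10A (0.84, adjusted p = 8.17e-05, named to complete the rises), TNFRSF10B (0.73, adjusted p = 0.00683) and FAS (0.64, adjusted p = 0.0448) rose less. EDAR, the ectodysplasin receptor, fell by 1.93 on the log2 scale (limma adjusted p = 7.11e-05), from 7.27, 3.29, 2.27 and 4.16 to 0.314, 0.456, 0.481 and 0 RPM. NGFR, the low-affinity neurotrophin receptor, also fell, by 1.57 (adjusted p = 8.23e-05), although its levels of 35.9, 59.0, 18 and 20.7 overlapped with 160.0, 110.0, 51.4 and 75.6. TNFRSF6B, a decoy receptor, fell by 0.85 (adjusted p = 0.0478) with overlapping groups. In total 4 of 22 ligands and receptors rose and 3 fell (18.2% and 13.6%, beside 4.17% and 3.19% of all genes), with a median of -0.03. There were 2 rises with library totals and without replicate 3 or 4, and 5 falls without replicate 2.

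Among signalling genes between the receptors and NF-kB, those that rose included the kinase of the non-canonical branch and a ubiquitin ligase that acts on it. BIRC3 (chr11:102188215-102210134, plus strand, GRCh37), which encodes the ubiquitin ligase cIAP2, was at 298, 145, 365 and 288 RPM in siVPS4A+B#1 against 7.87, 9.09, 6.54 and 7.39 in siVPS4B#1 (log2 fold change 4.91 ± 0.54 SE, limma adjusted p = 3.49e-07). MAP3K14, the kinase NIK, was at 45.0, 54.7, 35.8 and 45.4 against 8.18, 11.2, 8.95 and 9.86 (2.12 ± 0.30, limma adjusted p = 1.21e-05). Both were separated completely between the groups, and replicate 2 had the lowest BIRC3 and the highest MAP3K14 of the double-depleted libraries. TRAF3, an adaptor that targets NIK for degradation, rose by 1.00 (adjusted p = 0.000418) and the caspase inhibitor XIAP by 0.80 (adjusted p = 0.0025). Of the 22 genes in this group, 6 rose (27.3% beside 4.17% of all genes), none fell and the median was 0.24. Without replicate 4 there were 3 rises.

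Of the 5 NF-kB subunit genes, 4 rose (80% beside 4.17% of all genes). RELB, the transactivating subunit of the non-canonical branch, was at 119, 92.8, 133 and 152 RPM against 21.9, 21.4, 20.4 and 23.4 (log2 fold change 2.44 ± 0.33 SE, limma adjusted p = 4.64e-06). NFKB2, its p100 and p52 partner, was at 737, 639.5, 807 and 1201 against 234, 206, 209.8 and 199 (1.95 ± 0.31, limma adjusted p = 4.93e-05). NFKB1, the p105 and p50 precursor, was at 39.9, 46.2, 38.1 and 49.3 against 17.4, 20.9, 18.3 and 22.2 (1.10 ± 0.21, limma adjusted p = 0.000599). In none of these genes did the groups overlap. REL, the c-Rel subunit, rose by 0.92 (limma adjusted p = 0.0195). RELA, the main canonical subunit, stayed below the fold of 1.5 at 0.57 ± 0.17 (limma adjusted p = 0.0271). The median of the 5 was 1.10.

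Inhibitor and feedback genes of NF-kB moved the same way. Of these 13 genes 10 were called higher (76.9% beside 4.17% of all genes, and 6 without replicate 4) and none lower, with a median of 1.02. NFKBIA, the inhibitor IkB-alpha (chr14:35870285-35873955, minus strand, GRCh37), was at 393, 300.2, 256 and 380.3 RPM against 116, 84.6, 67.8 and 78.1 (log2 fold change 1.94 ± 0.27 SE, limma adjusted p = 9.32e-06). TNFAIP3, the deubiquitinase A20, was at 14.3, 16.6, 11.2 and 13.4 against 3.94, 4.74, 3.47 and 2.00 (1.74 ± 0.35, limma adjusted p = 0.000887). TNIP1, an A20-binding protein, was at 354, 263, 327 and 303 against 97.3, 99.7, 95.5 and 87.9 (1.69 ± 0.21, limma adjusted p = 1.73e-06). Each of these had its lowest double-depleted library above its highest single-depleted one. ZC3H12A, an RNase that degrades cytokine transcripts, rose by 1.70 (adjusted p = 1.5e-05). The second combination, which shares no library, called 8 of the 13, all higher (beside 11.9% of all genes). siVPS4A#2 alone called none of the 13 or of the 5 subunits (beside 0.0396% of all genes higher and 0.0317% lower). The interaction also called 8 of the 13 higher (beside 2.04% of all genes), but it contains the same 8 libraries and is not a separate check.

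**Figure D2:**
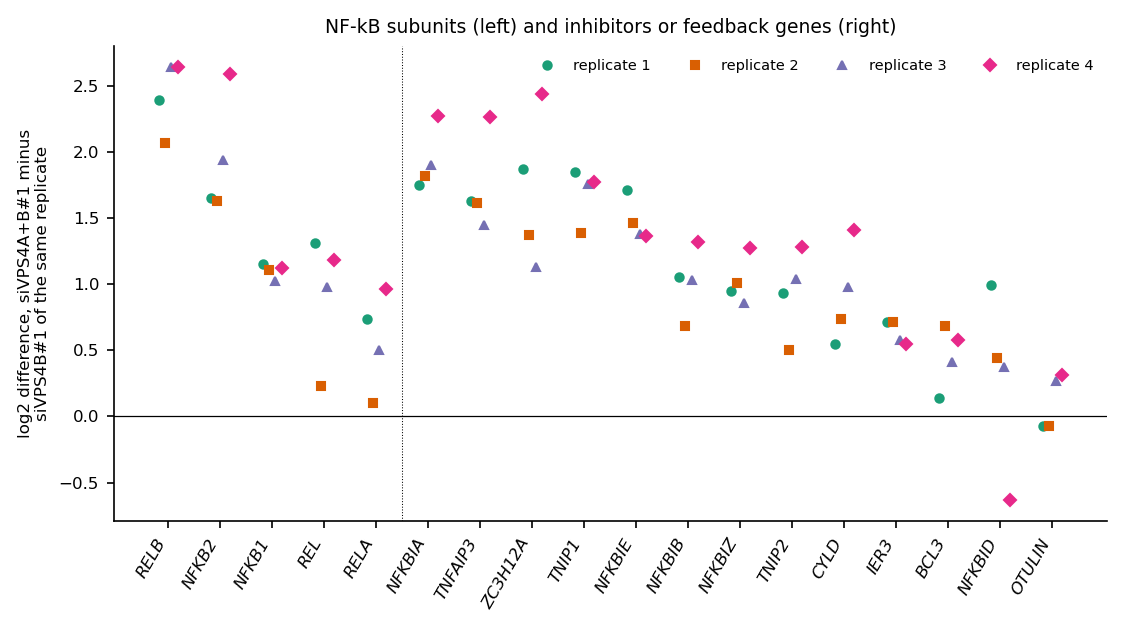
Same-numbered log2 differences (siVPS4A+B#1 minus siVPS4B#1, vertical axis) of the 5 NF-kB subunit genes (left of the dotted line) and 13 inhibitor or feedback genes (right), 1 symbol per replicate. RELB and NFKB2 lead the subunits and NFKBIA leads the inhibitors, with the 4 replicates of each above 0.

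Promoters of 6 of these genes are shown because the genes include the largest rises and the NF-kB inhibitors. Each line gives the 250 bases before the RefSeq start site (GRCh38.p14, 5′ to 3′ on the strand of the gene), with capitals where the letters match the kappaB consensus (searched by name) or the AP-1 element TGANTCA. The windows are chr4:73740319-73740568 (plus) for CXCL8, chr4:74099196-74099445 (minus) for CXCL2, chr1:7940840-7941089 (minus) for TNFRSF9, chr11:102317234-102317483 (plus) for BIRC3, chr14:35404750-35404999 (minus) for NFKBIA and chr6:137867009-137867258 (plus) for TNFAIP3.
CXCL8: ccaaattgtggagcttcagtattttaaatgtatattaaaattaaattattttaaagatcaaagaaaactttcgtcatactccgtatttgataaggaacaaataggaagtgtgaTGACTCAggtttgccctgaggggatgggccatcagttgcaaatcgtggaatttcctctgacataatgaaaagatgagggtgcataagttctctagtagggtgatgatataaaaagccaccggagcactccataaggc
CXCL2: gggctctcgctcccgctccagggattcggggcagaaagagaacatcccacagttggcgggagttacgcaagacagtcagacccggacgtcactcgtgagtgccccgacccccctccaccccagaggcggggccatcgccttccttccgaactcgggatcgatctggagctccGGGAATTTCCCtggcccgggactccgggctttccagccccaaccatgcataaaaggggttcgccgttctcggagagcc
TNFRSF9: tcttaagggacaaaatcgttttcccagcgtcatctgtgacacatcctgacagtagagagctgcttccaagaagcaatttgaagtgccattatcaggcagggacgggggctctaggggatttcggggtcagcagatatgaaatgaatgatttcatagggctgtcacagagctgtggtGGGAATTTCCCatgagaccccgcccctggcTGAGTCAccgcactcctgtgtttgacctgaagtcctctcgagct
BIRC3: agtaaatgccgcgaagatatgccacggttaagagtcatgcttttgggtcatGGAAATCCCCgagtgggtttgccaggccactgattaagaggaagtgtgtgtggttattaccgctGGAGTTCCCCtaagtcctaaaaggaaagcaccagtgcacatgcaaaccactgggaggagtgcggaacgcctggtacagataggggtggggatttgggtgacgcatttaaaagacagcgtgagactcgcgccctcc
NFKBIA: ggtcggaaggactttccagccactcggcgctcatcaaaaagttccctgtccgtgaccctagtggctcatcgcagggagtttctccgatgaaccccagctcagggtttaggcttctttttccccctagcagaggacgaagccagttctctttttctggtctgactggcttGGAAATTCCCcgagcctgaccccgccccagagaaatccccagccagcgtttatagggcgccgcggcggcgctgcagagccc
TNFAIP3: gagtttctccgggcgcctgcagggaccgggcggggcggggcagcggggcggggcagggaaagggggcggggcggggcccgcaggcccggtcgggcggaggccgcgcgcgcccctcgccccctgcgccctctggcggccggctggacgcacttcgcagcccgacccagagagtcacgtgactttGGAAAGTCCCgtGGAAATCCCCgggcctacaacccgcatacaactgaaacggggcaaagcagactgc

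In these windows CXCL8 held an AP-1 match from base 137 to base 131 before the start and no kappaB match by this consensus. CXCL2 held kappaB letters on both strands between bases 78 and 68, and TNFRSF9 between bases 74 and 64, next to an AP-1 match from 44 to 38. BIRC3 held kappaB matches from 199 to 190 and from 135 to 126, NFKBIA from 81 to 72, and TNFAIP3 from 67 to 58 and from 55 to 46. Over all genes the motif did not single out the raised ones: a kappaB match was present, on either strand, in the windows of 19.9% of the 418 raised genes with a window, 20.5% of the 298 lowered genes and 15.9% of the 10214 measured genes, beside 11.8% of all 27305 genes in the RefSeq table. The cyclic AMP element TGACGTCA was found for 8.37% of raised, 1.01% of lowered and 3.46% of measured genes. AP-1 letters were found for 11.7%, 7.72% and 6.11%, and the antioxidant element TGACNNNGC, whose letters can overlap those of AP-1, for 21.5%, 15.4% and 16%, in the same order. Among all 35116 windows, which include alternative starts, 9.96% held kappaB, 6.57% AP-1, 10.9% antioxidant and 1.65% cyclic AMP letters. These are letter matches without a test, and say nothing about binding.

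Of 28 immediate-early and AP-1 genes, 14 rose (50% beside 4.17% of all genes) and none fell, with a median of 0.68. NR4A1, an orphan nuclear receptor (chr12:52416616-52453291, plus strand, GRCh37), was at 240.1, 232, 122 and 216 RPM against 20.9, 20.8, 10.0 and 22.3 (log2 fold change 3.40 ± 0.53 SE, limma adjusted p = 3.81e-05). Replicate 3 was the lowest on both sides. ATF3, a stress-induced transcription factor (chr1:212738676-212794119, plus strand, GRCh37), was at 107, 53.2, 81.0 and 112 against 13.5, 7.44, 11.5 and 7.55 (3.01 ± 0.36, limma adjusted p = 1.52e-06). Its level in siVPS4B#1 lay below that in siCTRL#1 (25.8 ± 3.99, log2 fold change -1.41, limma adjusted p = 0.00468), so part of the difference lay under the control level. KLF6, a zinc-finger factor, rose by 1.74 (adjusted p = 5.47e-05), as did ZFP36L1, which promotes decay of AU-rich transcripts (1.74, adjusted p = 1.85e-06). EGR1, another early gene, had overlapping groups and a difference of -0.91 (limma adjusted p = 0.204).

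ERK feedback genes were divided. DUSP6, the phosphatase of cytoplasmic ERK (chr12:89741012-89746278, minus strand, GRCh37), fell by 2.15 on the log2 scale (SE 0.36, limma adjusted p = 0.000109), from 675, 446, 429 and 646 to 132, 266, 104 and 57.6 RPM. The drop was smallest in replicate 2 and largest in replicate 4. DUSP5, the phosphatase of nuclear ERK, went the other way, with 1201, 946, 1215 and 1698 against 392, 438, 319 and 391 (1.69, limma adjusted p = 1.69e-05). ETV4 (-0.82, adjusted p = 0.00331) and SPRY4 (-0.73, adjusted p = 0.0113), a transcription factor and an inhibitor of the ERK pathway, fell. Of the 14 genes of the group 2 rose and 3 fell (14.3% and 21.4%, beside 4.17% and 3.19% of all genes), with a median of -0.18. Without replicate 1, 3 or 4 there was 1 fall. SPRY4 differed between the combinations: the second gave 0.14, and the difference of -0.87 passed the test (limma adjusted p = 0.0421).

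NRF2 targets were the list with the largest share of rises among those with at least 10 measured genes besides the NF-kB inhibitors, 20 of 29 (69% beside 4.17% of all genes) with none lower and a median of 0.73. With library totals 14 rose, without replicate 3 there were 13 rises and without replicate 4 there were 12. SQSTM1, the autophagy receptor p62, which also binds the NRF2 inhibitor KEAP1 (chr5:179233398-179265078, plus strand, GRCh37), was at 5267, 4233, 7187 and 7450.0 RPM against 798, 859, 1084 and 954 (log2 fold change 2.68 ± 0.33 SE, limma adjusted p = 1.6e-06). OSGIN1, an oxidative stress-induced growth inhibitor, was at 46.1, 27.8, 47.1 and 38.4 against 6.36, 7.73, 7.74 and 4.93 (2.40 ± 0.29, limma adjusted p = 1.45e-06). SRXN1, which restores oxidised peroxiredoxins, was at 395, 189.8, 273 and 235 against 85.2, 58.5, 65.8 and 39.9 (2.11 ± 0.26, limma adjusted p = 1.65e-06). All 3 were separated, with replicate 2 the lowest double-depleted library in each. HMOX1, heme oxygenase 1 (chr22:35776354-35790207, plus strand, GRCh37), was at 289.9, 165, 485 and 355 against 62.8, 59.7, 76.0 and 65.8 (2.18 ± 0.27, limma adjusted p = 1.65e-06). The second combination raised it by 5.66, to a mean of 3912 RPM, and the difference between the combinations of -3.48 passed the test (limma adjusted p = 5.42e-07). As counts, the second combination called 18 of the 29 higher (beside 11.9% of all genes) and siVPS4A#2 alone none (beside 0.0396%). The interaction, which contains the same 8 libraries and is not a separate check, called 15 higher (beside 2.04%).

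**Figure D3:**
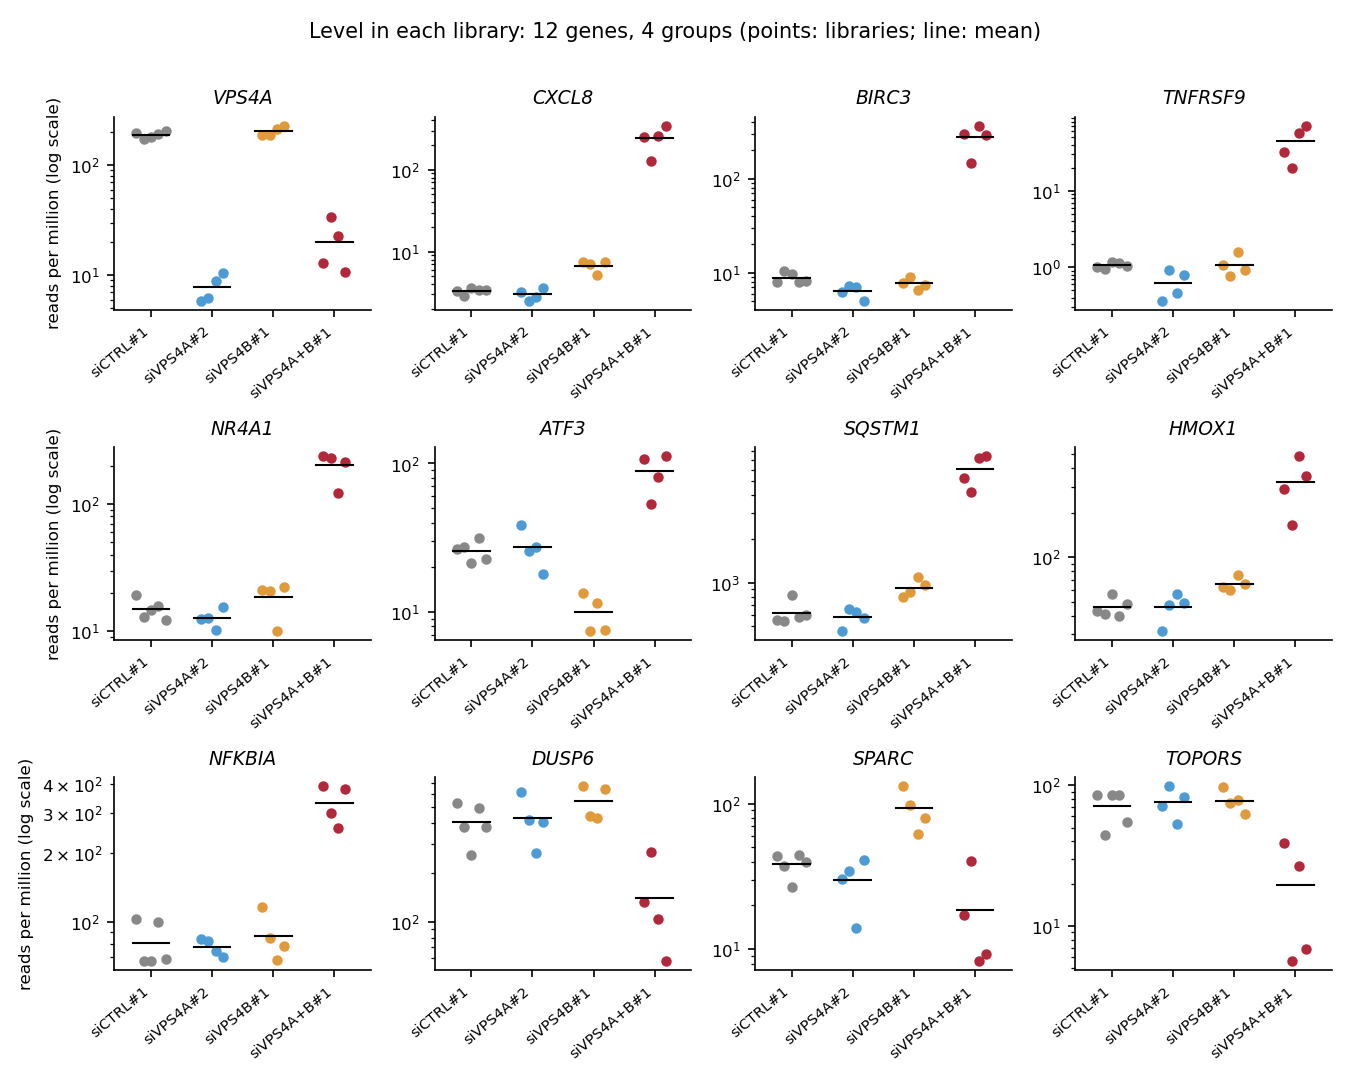
Level of 12 genes in every library of siCTRL#1, siVPS4A#2, siVPS4B#1 and siVPS4A+B#1, in RPM on a log axis; points are libraries and the line is the group mean. VPS4A is low wherever siVPS4A#2 was used. CXCL8, BIRC3, TNFRSF9, NR4A1, SQSTM1, HMOX1, NFKBIA and ATF3 are highest with siVPS4A+B#1 among the 4 groups. DUSP6, SPARC and TOPORS have their lowest means there, with SPARC of replicate 2 inside the siCTRL#1 range.

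Of 29 ATF4 and integrated stress response genes 6 rose (20.7% beside 4.17% of all genes) and none fell (median 0.45), led by the secreted glycoprotein STC2 with 336, 206, 225 and 354 RPM against 152, 57.3, 65.3 and 67.8 (log2 fold change 1.78, limma adjusted p = 0.000629). The 6 rises became 3 with library totals or upper-quartile scaling, 2 without the replicate block, 2 without replicate 3 or replicate 4, 3 without siVPS4A+B#1 replicate 3 or siVPS4B#1 replicate 4, and 10 without the shallow siVPS4A#1 library. STC2 and the list member JDP2 (1.06, adjusted p = 0.000825) were both lower in siVPS4B#1 than in siCTRL#1 (-1.24 and -1.29). For JDP2, siVPS4A+B#1 replicate 1 stood above the others (9.43 RPM, the others 3.49 to 3.97). Aminoacyl-tRNA synthetases, which are ATF4 targets too, gave 0 of 20 calls in limma at a median of 0.29, with 4 at an unadjusted p under 0.05 and the same fold, 1 in DESeq2 and 2 in edgeR. ER chaperones and unfolded protein response genes gave 0 of 23 calls at a median of -0.11, with 0 at an unadjusted p under 0.05 and the same fold, 1 lower in DESeq2 and 0 in edgeR. Of 19 cytosolic heat shock genes 1 rose (DNAJB4, 0.85) and 1 fell (SERPINH1, -0.59), 5.26% each beside 4.17% and 3.19% of all genes. Under library-total scaling the unfolded protein response list had 2 genes called lower. Among further lists, 3 of 36 ribosome biogenesis genes rose (8.33% beside 4.17% of all genes), led by RRP12, which processes pre-ribosomal RNA (1.47, limma adjusted p = 4.06e-07), as did 1 of 12 genes of the EGFR family and its ligands (8.33%). In the hypoxia and glycolysis list 3 of 21 rose (14.3%), but 0 without replicate 3 or replicate 4, 1 without replicate 1 and 1 with library totals. Of 6 inflammasome genes 0 were called in limma, DESeq2 or edgeR, and 0 at an unadjusted p under 0.05 with the fold.

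Genes of the ESCRT machinery itself were not called in either direction. CHMP1B (0.57, limma adjusted p = 0.00985) and VPS37B (0.54, limma adjusted p = 0.0446) passed the adjusted p but stayed under the fold of 1.5. The list of 17 ESCRT-III genes and VPS4 partners had a median of 0.14 and a range from -0.24 to 0.57, and the 17 ESCRT-0, ESCRT-I and ESCRT-II genes with ALIX had a median of 0.15. For both lists limma, DESeq2 and edgeR called 0 genes, and 0 had an unadjusted p under 0.05 with a fold of 1.5. With library-total scaling the medians were -0.02 and 0.00. In the lysosomal list 4 of 54 genes rose and none fell (7.41% beside 4.17% of all genes higher, median 0.10), whereas with library totals 1 rose and 3 fell (median -0.06), and 1 rose without replicate 3 or replicate 4. The 4 were GLA, alpha-galactosidase A, at 48.3, 33.0, 80.1 and 51.8 RPM against 14.1, 18.6, 28.3 and 19.4 (log2 fold change 1.34, limma adjusted p = 1.11e-05), NPC1, the lysosomal cholesterol exporter (0.80, adjusted p = 0.0281), the protease CTSL (0.62) and the proton pump subunit ATP6V0E1 (0.62). Apart from SQSTM1, the autophagy receptor OPTN (0.87) and GABARAPL1 (0.67) rose among 33 autophagy genes, and 1 of these 3 rises was left without replicate 3 or replicate 4. Of 35 endosomal Rab and sorting nexin genes none rose and 1 fell, RAB38 (2.86% beside 3.19% of all genes lower).

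Of 34 genes of sterol and fatty acid synthesis, 10 rose (29.4% beside 4.17% of all genes) and 1 fell, with a median of 0.42. The number of rises leaned on single replicates, with 2 without replicate 3 or replicate 4, 3 without replicate 1 and 6 without siVPS4A+B#1 replicate 4 alone, and was 7 with library totals. HMGCS1, which makes HMG-CoA, was at 414, 413, 787 and 624 RPM against 104, 159, 132 and 119 (log2 fold change 2.08 ± 0.38 SE, limma adjusted p = 0.000323). FDPS, farnesyl diphosphate synthase, was at 168, 124, 231 and 173 against 62.4, 70.1, 96.5 and 56.5 (1.27, limma adjusted p = 7.1e-05). Both genes had no overlap between the groups. SQLE, squalene epoxidase, rose by 1.22 (adjusted p = 0.00457), and TM7SF2, a sterol reductase, fell by 1.23 (adjusted p = 0.0121). TFRC, the transferrin receptor, a cargo of endosomal recycling, was at 599, 509, 652 and 705 against 231, 264, 312 and 256 (1.21, limma adjusted p = 9.75e-06), more than in the second combination (0.44, difference 0.77, limma adjusted p = 0.0439). The second combination called 19 sterol genes higher and 1 lower (beside 11.9% and 12.7% of all genes).

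Cell death genes were mostly not called. PMAIP1, the BH3-only protein NOXA, was at 653, 434, 513 and 615 RPM against 195, 214, 203 and 148 (log2 fold change 1.54 ± 0.21 SE, limma adjusted p = 7.46e-06), and BIK, another BH3-only protein, was at 45.1, 34.8, 35.4 and 39.1 against 21.9, 23.4, 13.2 and 19.2 (0.98, limma adjusted p = 0.0014). These were the 2 that rose among 13 pore-forming and BH3-only genes (15.4% beside 4.17% of all genes, median 0.13). The pore-former BAK1 had overlapping groups, 91.5, 80.2, 78.0 and 56.7 against 68.3, 57.1, 75.3 and 56.8 (0.24, limma adjusted p = 0.376), whereas the second combination raised it by 1.19, and the difference of -0.95 passed the test (limma adjusted p = 0.00652). BCL2L11, the BH3-only protein BIM, gave 0.43 (limma adjusted p = 0.0717). Of the 4 anti-apoptotic genes, 0 were called in limma, DESeq2 or edgeR, and 0 had an unadjusted limma p under 0.05 with the fold. MCL1 among them stayed just under the fold at 0.56 (adjusted p = 0.0155), below the 1.47 of the second combination (difference -0.90, limma adjusted p = 0.0091). CFLAR, the caspase-8 regulator FLIP, was the 1 gene of 18 in the caspase and adaptor list to rise (0.76, adjusted p = 0.0222), 5.56% beside 4.17% of all genes. Of 28 p53 targets 6 rose (21.4%), including TNFRSF10B, FAS and the nuclease AEN (0.76). Of these 28, 1 rose under library-total scaling, 2 with upper-quartile scaling, 3 without replicate 1 and 1 without replicate 3 or 4.

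Proliferation genes separated the first combination from the second. In the first, 1 of 44 mitosis genes rose (UBE2C, 0.91, limma adjusted p = 0.0207), 2.27% beside 4.17% of all genes, and none fell, with a median of 0.11. In the second, 37 of the 44 fell (beside 12.7% of all genes), with a median of -1.01. The test of the difference called 28 of the 44, with the more positive value in the first (beside 4.39% of all genes). For G1/S and replication genes the first combination gave 1 rise of 50 (CDT1, 0.65, adjusted p = 0.0212), 2% beside 4.17% of all genes, at a median of 0.02. The second gave 1 rise and 25 falls (beside 11.9% and 12.7% of all genes). The difference gave 17 calls, more positive in the first (beside 4.39% of all genes). The 38 replication-dependent histone genes have near-identical sequences, so that reads may be shared. Of them 1 fell in the first combination (beside 3.19% of all genes) and 28 in the second (beside 12.7%). The difference called 7, more positive in the first (beside 4.39%). UBE2C and CDT1 were lower in siVPS4B#1 than in siCTRL#1, by 1.13 and 1.21 on the log2 scale. Their levels were 121 ± 23.6 against 249 ± 28.6 and 72.4 ± 9.05 against 162 ± 37.9 RPM. Both comparisons of these genes share the siVPS4B#1 libraries, so a low siVPS4B#1 value enters them with opposite sign. With library-total scaling the medians of the mitosis and G1/S lists in the first combination were -0.05 and -0.12, with 1 and 0 genes called lower.

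Of 31 interferon-stimulated genes 4 rose and 2 fell (12.9% and 6.45%, beside 4.17% and 3.19% of all genes, median -0.06). The second combination raised 16 and lowered none (beside 11.9% and 12.7% of all genes). The difference called 9 lower in the first (beside 2.95%). The rises numbered 1 with library totals, 2 with upper-quartile scaling and 0 without replicate 1, without siVPS4A+B#1 replicate 1 or without replicate 4, and 1 without replicate 3. IFIT1, an antiviral RNA-binding protein, was at 3.62, 6.08, 4.33 and 3.42 RPM against 14.5, 16.1, 13.5 and 13.7, and fell by 1.55 (limma adjusted p = 0.000634). IRF1 rose by 0.81 (adjusted p = 0.00823) with overlapping groups. In the antigen presentation list 3 of 17 genes rose (17.6%, and 1 without replicate 3 or 4), the peptide transporter TAP1 (0.81), its partner TAPBP (0.76) and the light chain B2M (0.77). Of 12 Wnt and beta-catenin targets 4 fell (33.3%, and 2 without replicate 1 or siVPS4B#1 replicate 1 and 1 without replicate 4), among them the feedback genes AXIN2 (-0.61, adjusted p = 0.00552) and NKD1 (-0.79, adjusted p = 0.00324), and 1 rose, the Wnt antagonist DKK1, at 59.9, 64.3, 82.2 and 109 against 11.8, 12.2, 12.2 and 11.6 (2.59, limma adjusted p = 8e-06). AXIN2 fell further in the second combination (-2.36, difference 1.75, limma adjusted p = 1.45e-06).

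The list of GO inflammatory response genes, whose members were taken from the study's tables and are thus not independent of these data, had 54 rises and 13 falls among 350 measured genes (15.4% and 3.71%, beside 4.17% and 3.19% of all genes) and a median of 0.08. GO positive regulation of programmed cell death, from the same source, had 39 rises and 17 falls among 468 (8.33% and 3.63%) and a median of 0.05. With library totals the medians were -0.05 and -0.07, and the counts were 42 against 21 and 30 against 30. The rises numbered 25 in each list without replicate 4, and 34 and 23 without replicates 1 and 3, respectively.

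**Figure D4:**
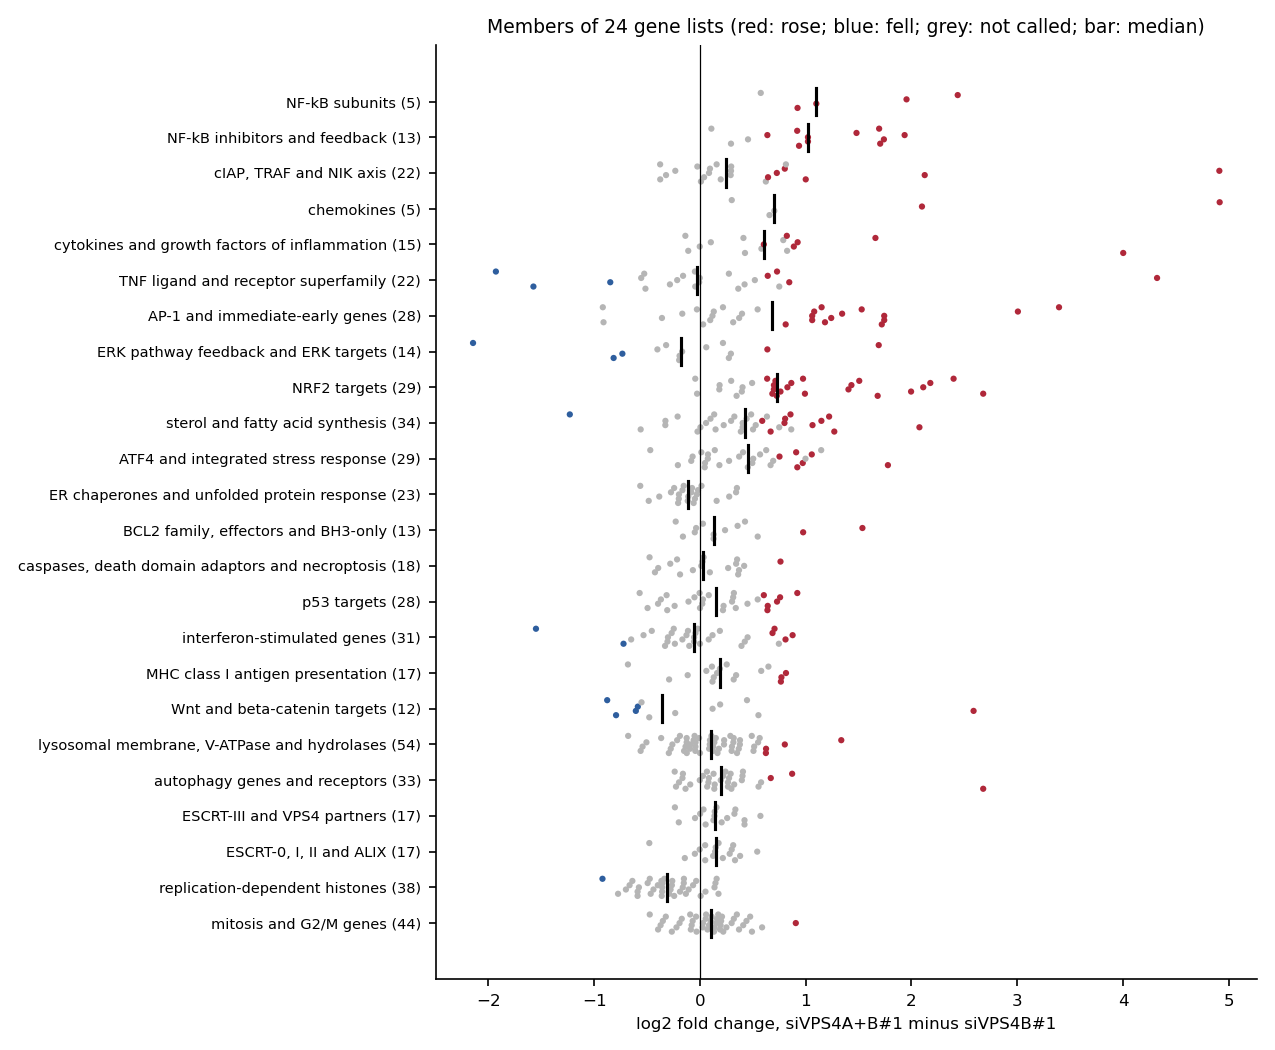
Log2 fold change (siVPS4A+B#1 minus siVPS4B#1, horizontal axis) of each measured member of 24 gene lists, with the number of members in brackets; red points rose, blue points fell, grey points were not called, and the bar is the median of the list. NF-kB subunits, NF-kB inhibitors and NRF2 targets have medians of 1.10, 1.02 and 0.73. The ESCRT lists and the mitosis list have medians between 0.11 and 0.15 (between -0.05 and 0.00 with library totals).

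Outside these lists, the largest rises included secreted and epithelial genes. CPA4, a secreted carboxypeptidase (chr7:129932974-129964020, plus strand, GRCh37), was at 152, 142, 261 and 354 RPM against 11.4, 17.7, 45.3 and 25.3 (log2 fold change 3.21 ± 0.39 SE, limma adjusted p = 1.52e-06). KRT7, a simple-epithelial keratin, was at 43.2, 16.1, 18.6 and 38.7 against 2.27, 3.29, 2.14 and 2.16 (3.01, limma adjusted p = 2.65e-05). The groups were apart in both genes. CPA4 was also higher in siVPS4B#1 than in siCTRL#1 (1.47, limma adjusted p = 0.00589), whereas KRT7 gave -1.07 there (limma adjusted p = 0.104). The Ras-related GTPase RASD1 (2.67), the hexokinase-like HKDC1 (2.63) and the phospholipase PLA2G4C (2.62) rose from levels between 0.267 and 2.90 RPM.

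CD68, a lysosomal glycoprotein that also serves as a macrophage marker, was at 132, 90.2, 147 and 179 RPM against 19.5, 19.6, 22.6 and 25.3 (log2 fold change 2.57, limma adjusted p = 0.000887). It was 1 of 2 measured leukocyte markers. The other, LYZ, had 0 reads in all 4 siVPS4A+B#1 libraries, which allows up to 3 reads in each by counting error alone, and 2 to 6 reads in siVPS4B#1, and the remaining 8 markers of the list were not analysed here. The summed leukocyte list ran from 90.2 to 179 and from 19.8 to 26.2. Colorectal epithelial markers summed to 6940 to 8450 in siVPS4A+B#1 and 6530 to 7660 in siVPS4B#1, with 1 of 8 called higher (ELF3) and 1 lower (KRT18), and fibroblast and endothelial markers to 23.5 to 41.5 and 24.9 to 42.2 with none of 3 called.

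The largest falls after VPS4A were SPARC and TOPORS. SPARC, a matrix glycoprotein (chr5:151040657-151066536, minus strand, GRCh37), was at 17.3, 40.3, 8.30 and 9.23 RPM against 132, 97.4, 61.5 and 80.1 and fell by 2.46 on the log2 scale (SE 0.58, limma adjusted p = 0.00477). In siCTRL#1 SPARC was at 26.9 to 44.1 RPM, below siVPS4B#1, so part of the difference lay above the control level. The 40.3 of siVPS4A+B#1 replicate 2 lay within that control range. TOPORS, a nuclear ubiquitin and SUMO ligase (chr9:32540542-32552584, minus strand, GRCh37), was at 38.8, 5.62, 26.7 and 6.85 against 96.6, 74.4, 78.5 and 62.2 and fell by 2.33 (SE 0.49, limma adjusted p = 0.00176). The fall of TOPORS was largest in replicates 2 and 4, and the second combination gave 0.28 (adjusted p = 0.706, difference -2.61, limma adjusted p = 0.0175). MMP15, a membrane-bound metalloproteinase, fell by 1.96 (limma adjusted p = 0.000157) from 270.0, 262, 215 and 195 to 141, 40.1, 107 and 20.2, with the lowest levels again in replicates 2 and 4.

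Some lowered genes had higher mean levels in siVPS4B#1 than in siCTRL#1, which were parallel cultures. MC1R, the melanocortin receptor, was at 6.07 ± 2.62 in siCTRL#1, at 12.7, 16.8, 14.9 and 15.1 RPM in siVPS4B#1 (log2 fold change over siCTRL#1 1.33, limma adjusted p = 0.000132) and at 3.93, 6.68, 4.45 and 1.64 in siVPS4A+B#1 (-1.71, limma adjusted p = 1.11e-05). SERPINF1, the anti-angiogenic factor PEDF, was at 4.31 ± 1.73 in siCTRL#1, 11.5 ± 3.07 in siVPS4B#1 and 2.81 ± 1.74 in siVPS4A+B#1 (-1.79, limma adjusted p = 0.000159). LFNG, a glycosyltransferase of Notch receptors, fell by 1.65 (limma adjusted p = 2.49e-05), from 36.6, 30.7, 35.0 and 26.5 to 11.8, 12.5, 6.73 and 8.19. Its difference between siVPS4B#1 and siCTRL#1 did not pass the test (0.40, limma adjusted p = 0.299). These comparisons share the siVPS4B#1 libraries, so a high siVPS4B#1 value enters both with opposite sign.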

How the data were processed

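The authors sequenced 38 HCT116 libraries made with the Ion AmpliSeq transcriptome panel, aligned reads to hg19 with TMAP and counted them with HTSeq 0.6.0 (the submitters' processing notes also name DESeq2 1.18.1). The deposited signal is each gene's share of its library's reads over 12627 genes. Low values were whole multiples of 1 read in all libraries (tolerance 0.1 read), so reads were recovered; in siVPS4B#1 replicate 2 and siCTRL#1 replicate 5 the share of 1 read lay near a power of 10, where rounding alone could give multiples. How rows were chosen is not given in the sources used here, and the lowest row held 37 reads. Gene symbols matched for all but 144 rows (RefSeq). Groups came from sample titles.

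The main test was limma 3.58.1 (trend) on log2(reads per 1000000, RPM, + 1) after TMM scaling (edgeR 4.0.16), with terms for 9 conditions, a block for replicate number and Benjamini-Hochberg adjustment over all genes. edgeR quasi-likelihood and DESeq2 1.42.0 on recovered reads, other scalings, pseudocounts of 0.1 and 5, a filter at a mean of 1 RPM and omission of libraries were alternatives. Deviations of same-numbered libraries from their group means correlated at r = 0.687, 0.159, 0.475 and 0.341 over 8321 genes. Different-numbered libraries gave -0.568 to 0.29. Each library correlated most with its same-numbered partner, but only weakly in replicate 2. Scripts ran in R 4.3.3 and Python 3.11.15, and the fits were tested on simulated data. Depth of the 8 libraries was 6309022 to 9919502 reads. PCR reads carry no molecular identifiers, so limits on 0 reads cover counting error only.

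The members and the 40 gene lists were chosen with earlier results of these data known. Named genes were both targets, the 15 largest rises and the 15 largest falls among called genes whose same-numbered differences share 1 sign and whose higher group averages at least 5 RPM, up to 4 called and 2 uncalled members of each list, and 9 genes that the study discusses. Of these 178 genes, those described here are a selection by role, and 1 of the largest rises is not reported here. Motifs were searched on both strands.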

Additional observations from a re-analysis of the deposited data

Results flagged for a closer look

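Libraries that stood apart within their group of 4 were looked for by Dixon's test, which chance alone meets in about 1 in 20 groups. In all 196 such tests were run, so about as many hits as are listed here can come from chance alone. In siVPS4A+B#1, replicate 3 was low for NR4A1 (122 RPM, the others 216 to 240.1) and high for TAPBP (4.09, the others 3.27 to 3.34) and NAF1 (27.8, the others 22.5 to 23.1). Replicate 1 was high for JDP2 (9.43, the others 3.49 to 3.97) and AEN (112, the others 94.2 to 96.3), and replicate 2 was low for CFLAR (44.1, the others 62.9 to 67.1). In siVPS4B#1, replicate 3 was low for CXCL8 (5.21, the others 7.06 to 7.42) and NR4A1 (10.0, the others 20.8 to 22.3). There replicate 1 was low for REL (10.6, the others at 13.6) and, with 0.151, was the only library with a TNF read, and replicate 2 was high for KRT7 (3.29, the others 2.14 to 2.27).

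The effect of the VPS4A duplex differed with the presence of VPS4B for 258 genes in the positive and 71 genes in the negative direction (limma interaction). It differed between the duplex combinations for 554 and 373 genes. Among the genes described, the first minus the second combination gave 1.75 for VPS4A itself (-3.42 against -5.16, limma adjusted p = 0.00974). HMOX1 gave -3.48, TOPORS -2.61, TNFRSF6B -1.87, BAK1 -0.95, SERPINH1 -0.94, MCL1 -0.90 and SPRY4 -0.87. AXIN2 gave 1.75, CDT1 1.11 and TFRC 0.77.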

How the results depend on the processing

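The numbers of called genes moved with the processing, and the cause was not tested. Genes higher and lower (527 and 403) became 331 and 747 with library totals, 58 and 18 when limma tested against the fold itself, and 186 and 93 at a fold of 2. Only the lower count left a band of 1.5 times with 8 libraries alone (623), DESeq2 (649), array weights (625) and a pseudocount of 5 (209). Leaving out replicates or libraries one at a time gave 212 to 742 higher and 133 to 704 lower genes, the lowest without replicate 4 and the highest without replicate 2; without siVPS4A+B#1 replicate 4 alone it gave 328 and 259. For the interaction (329) DESeq2 gave 662 and omissions gave 12 to 783. For the difference between the combinations (927) DESeq2 gave 1439 and omissions gave 201 to 1603, and for siVPS4A#2 alone (9) DESeq2 gave 14, library totals 5 and omissions 4 to 14. The second combination (3103) ranged from 2538 to 3340 under omissions. Without the replicate block, the pairing being ignored, 464 genes were higher and 330 lower, the interaction had 199 and siVPS4A#2 alone 5.

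Of the 83 called genes named by the rule and described here, none changed direction under any alternative. The rule picked called genes with large changes, so a reversal was hardly possible and its absence lends no support. limma's test against the fold itself kept 39, edgeR kept 80, DESeq2 79, library totals 75, no block 78, and omission of replicates 1, 3 and 4 kept 60, 57 and 51. VPS4B ranged from -0.12 to 0.36 and MTFP1 from -0.21 to 0.05 under omissions, which changed their sign. Levels of a few reads, as for VPS4B, TNF, IL1A and EDAR, are limited by depth.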
